A study of Arabidopsis thaliana with 6 samples.

Results

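Ground tissue of the Arabidopsis thaliana root, the cortex and the endodermis, was compared with 3 tissues outside it, the epidermis, the stele and the columella root cap. The sides were set by the cell type in the labels, and all 6 libraries of the series enter, 3 on each side. Each library is polyA+ RNA from fluorescence-sorted root cells of seedlings grown for 6 days. Cortex came from ProAT1G09750:GFP plants (1 library) and endodermis from ProSCR:GFP line1 and ProSCR:GFP line2 (1 library each). Epidermis came from ProWER:GFP, stele from ProWOL:GFP and columella root cap from the PET111 enhancer trap line (1 library each). Each name gives the promoter, or the trapped enhancer, that drives green fluorescent protein, so a sorted population holds whichever cells that promoter marks. The 2 endodermis libraries differ in reporter line, the labels name no separate cultures, and the other 4 cell types have no replicate.

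Cortex and endodermis arise from common stem cells next to the quiescent centre. SHORT-ROOT (SHR) protein moves out of the stele into the neighbouring layer, where it acts with the GRAS protein SCARECROW (SCR) to drive the division that separates the layers. Zinc finger proteins of the INDETERMINATE DOMAIN (IDD) family, such as JACKDAW (JKD) and MAGPIE (MGP), bind SHR and SCR, hold them in the nucleus and mark the ground tissue. The endodermis later builds the Casparian strip, a lignin ring that seals the space between cells, while cortex cells elongate under gibberellin. The comparison asks which genes the layers of this lineage share and the tissues on either side of it lack.

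A gene was counted when the lowest library of one side exceeded the highest of the other on the scale log2(FPKM + 1), where FPKM is fragment numbers per transcript length and per library size. Of 33554 loci, 19671 reached 1 FPKM in at least 1 library and were compared. Every ground library stood above every non-ground library at 1021 genes (5.19% of those compared) and below at 498 (2.53%). A stricter rule, a gap of at least 2-fold between the sides and 5 FPKM in every library of the higher side, left 95 genes above (0.483%) and 15 below (0.0763%). As a test, limma was fitted to all genes, 3 libraries against 3, with Benjamini-Hochberg adjustment, and 0 genes (0%) passed an adjusted p of 0.05 in either direction. At an unadjusted p under 0.05 that fit held 615 genes higher (3.13%) and 193 lower (0.981%) in ground tissue, and its lowest adjusted p was 0.182. Fewer libraries leave a weaker condition, and the counts above and below became 3262 and 2578 without stele, 2156 and 2250 without epidermis, 2520 and 1335 without endodermis line 1, and 1653 and 664 without columella root cap. In a second limma fit, with a mean for each cell type, 344 genes were higher (1.75%) and 321 lower (1.63%) at an adjusted p under 0.05. In that fit only the endodermis pair leaves a residual (1 degree of freedom), and the prior weight was infinite, so each gene's own spread between the lines was replaced by a trend shared by all genes. A gene whose lines lie far apart, such as CASP5 at 925 and 85.0 FPKM, therefore still gets a low p, 0.000334. It also assumes that the lone libraries vary as the endodermis pair does. All p-values below are limma adjusted p-values, from the 3 against 3 fit unless the cell type fit is named. They and the standard errors (SE) measure only the spread between these libraries. In the 3 against 3 fit the libraries of a side are different cell types or lines, so that spread mixes cell types and is not that of replicates.

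**Figure D1:**
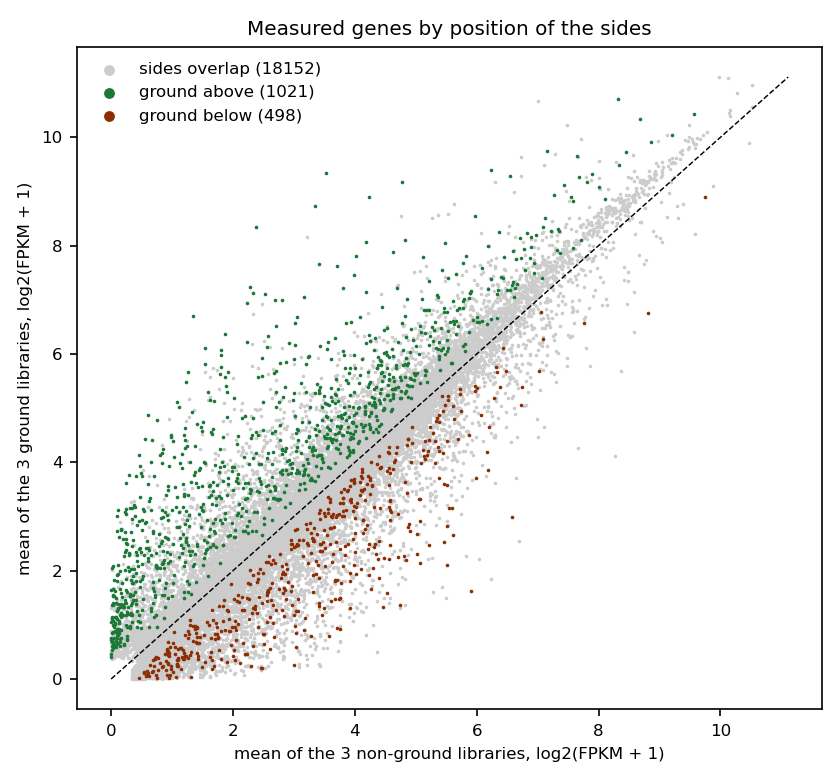
Mean log2(FPKM + 1) of the 3 ground libraries (vertical axis) against that of the 3 non-ground libraries (horizontal axis), 1 point per measured gene, with the line of equality dashed. The 1021 genes above (green) have gaps between the sides of up to 3.86 log2 units and the 498 genes below (brown) of up to 2.04, and grey genes have sides that overlap.

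The libraries did not group by side. Across the 19671 genes, Spearman's rho was 0.939 between cortex and endodermis line 2, 0.843 between cortex and line 1, and 0.836 between the endodermis lines. Stele correlated at 0.898 with endodermis line 2 and at 0.847 with cortex, so both were nearer to stele than the endodermis lines were to each other. Line 1 reached 0.778 with epidermis and 0.723 with stele, and the lowest rho, 0.607, was between epidermis and stele on the same side. Summed FPKM lay between 576322 and 642028, and between 15999 and 17096 loci stood at 1 FPKM or more. The number of reads is not given in the sources used here. The value of a single read was therefore judged from low loci against endodermis line 1. It ranged from 0.979-fold in stele to 1.59-fold in cortex, which by this estimate alone was the shallowest library.

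**Figure D2:**
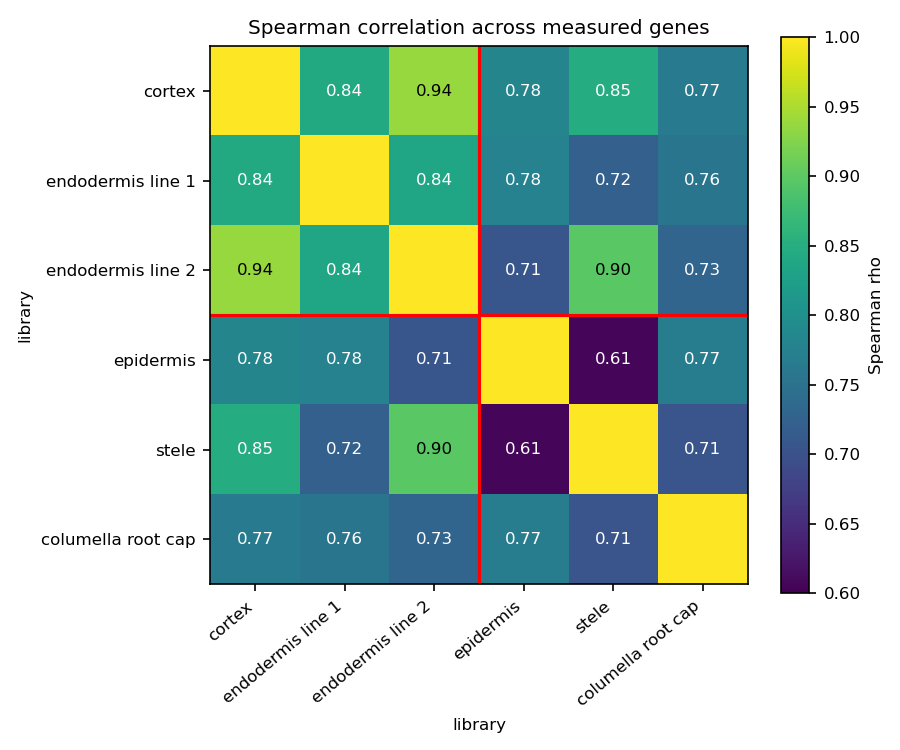
Spearman correlation across measured genes for every pair of libraries, both axes listing the libraries, with red lines between the 3 ground and 3 non-ground libraries. Endodermis line 2, cortex and stele form the closest trio (0.939, 0.898 and 0.847), while the epidermis and stele pair is lowest at 0.607.

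The reporter genes were examined next. SCR (AT3G54220) stood at 36.5 FPKM in cortex, 59.7 in endodermis line 1 and 147 in line 2. Its values in epidermis, stele and columella root cap were 1.99, 14.7 and 3.35 FPKM. The sides did not overlap, and stele came nearest, 1.25 log2 units below cortex. The difference of means was 3.56 (SE 0.76) on the log2(FPKM + 1) scale, with an adjusted p of 0.557 in limma and of 0.000371 in the limma cell type fit. AED3 (AT1G09750), an aspartyl protease whose promoter marks cortex, was at 43.0 FPKM in cortex and at 5.51 and 3.79 in endodermis lines 1 and 2. Against it stood 2.96 FPKM in epidermis, 1.33 in stele and 2.48 in columella root cap, so that its sides were apart by 0.27 log2 units. WER (AT5G14750) was at 91.3 FPKM in epidermis, 2.57 in stele and 6.97 in columella root cap. In cortex and endodermis lines 1 and 2 it was at 12.8, 4.61 and 5.57 FPKM. WOL (AT2G01830) was at 46.0 FPKM in stele, 30.7 in epidermis and 10.3 in columella root cap, and at 18.7, 24.6 and 22.5 in ground tissue. Neither gene separated the sides.

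Promoter sequence is shown for the gene with the largest gap, AGP26, and for JKD and SCR, the regulators of the lineage. Each run is the 250 bases before the annotated gene start in RefSeq assembly TAIR10.1, read 5′ to 3′ on the strand of the gene. Capitals mark either of the following on either strand. The IDD core, a short motif that IDD proteins bind, was searched as TTTGTC. The G-box, which bHLH and bZIP factors bind, was searched as CACGTG.
AGP26, chr2:19617682-19617931, minus strand: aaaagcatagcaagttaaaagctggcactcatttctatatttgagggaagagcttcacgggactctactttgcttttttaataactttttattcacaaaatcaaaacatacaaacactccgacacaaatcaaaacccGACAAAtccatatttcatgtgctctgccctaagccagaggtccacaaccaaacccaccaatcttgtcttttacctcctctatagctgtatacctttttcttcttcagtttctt
JKD, chr5:745171-745420, plus strand: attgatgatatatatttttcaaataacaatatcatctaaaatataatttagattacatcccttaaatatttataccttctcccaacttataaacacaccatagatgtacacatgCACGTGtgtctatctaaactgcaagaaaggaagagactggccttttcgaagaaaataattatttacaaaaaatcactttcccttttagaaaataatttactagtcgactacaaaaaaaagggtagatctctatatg
SCR, chr3:20069737-20069986, plus strand: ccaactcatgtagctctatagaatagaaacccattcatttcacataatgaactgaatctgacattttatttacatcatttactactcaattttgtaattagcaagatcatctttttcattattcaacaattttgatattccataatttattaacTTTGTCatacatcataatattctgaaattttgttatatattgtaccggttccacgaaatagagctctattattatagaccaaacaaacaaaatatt
AGP26 and SCR each held 1 IDD core and no G-box, and JKD held 1 G-box and no IDD core. The IDD core occurred in 36 of the 94 promoters of protein-coding genes above by 2-fold (38.3%) and in 4680 of 18940 promoters of all measured protein-coding genes (24.7%). The G-box occurred in 11 of 94 (11.7%) against 1409 of 18940 (7.44%). The core of the W-box, TTGAC, which WRKY factors bind, occurred in 32 (34%) against 8540 (45.1%). Matches of different motifs can overlap in a promoter. These shares are a description without a test, and a match of letters is not a bound site.

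Regulators of ground tissue identity formed the clearest group. Of 15 such genes, 9 stood above (60%, against 5.19% of all genes), 1 stood below and 5 overlapped, and the median difference was 2.41 on the log2 scale, against 0.01 over all genes. The list held 12 genes at an unadjusted limma p under 0.05 and 0 at an adjusted p under 0.05, and 8 were called higher in the limma cell type fit. The 9 genes above were SCR, JKD, MGP, NUC, BIB, IDD4, IDD5, BLJ and SCL23. SCR is also the gene whose promoter marked the sorted endodermis. Lists were drawn up with earlier results of these data known, so their counts are descriptions.

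JKD (AT5G03150) stood at 66.3, 36.3 and 61.3 FPKM in cortex and endodermis lines 1 and 2. In epidermis, stele and columella root cap it was at 1.47, 4.50 and 2.12 FPKM. Its sides were 2.76 log2 units apart and its difference of means was 3.95 (SE 0.49, adjusted p 0.289 in limma). JKD restricts the division of ground tissue cells and also sends a signal that patterns the epidermis above them. MGP (AT1G03840), its partner, was at 22.1, 10.8 and 12.6 FPKM in ground tissue, against 0.641 in epidermis, 10.13 in stele and 0.871 in columella root cap. Only the stele value came near, and there the gap was under 1 FPKM. NUC (AT5G44160, NUTCRACKER) was at 22.2, 14.9 and 5.93 FPKM against 0.752, 4.89 and 0.636, again with stele nearest.

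The other IDD genes differed in which layer held more. IDD4 (AT2G02080) was highest in cortex, at 17.4 FPKM against 4.78 and 5.57 in the endodermis lines, and at most 0.349 outside ground tissue. BLJ (AT1G14580, BLUEJAY) was the reverse, at 2.66 FPKM in cortex and 27.7 and 23.3 in the endodermis lines, and at most 0.311 outside. BLJ is known to act with JKD and SCR in specifying the lineage. BIB (AT3G45260, BALDIBIS) also favoured the endodermis, with 1.00 FPKM in cortex, 5.46 and 9.74 in lines 1 and 2, and at most 0.475 outside. IDD5 (AT2G02070) was shared, at 19.6, 7.52 and 22.6 FPKM against 0.102, 1.83 and 0.258. SCL23, a GRAS gene that acts with SCR in endodermal fate, was at 7.02, 9.86 and 11.4 FPKM against 1.45, 2.64 and 2.16.

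The 5 identity genes whose sides overlapped did so at the stele or throughout. SHR itself was highest in stele, where it is transcribed, at 98.8 FPKM. It stood at 7.27, 11.6 and 16.7 FPKM in cortex and endodermis lines 1 and 2, at 0.193 in epidermis and at 2.12 in columella root cap. SCL3, a GRAS regulator of gibberellin response, was at 11.3, 28.7 and 50.4 FPKM in ground tissue and 13.6 in stele, which passed the cortex. SCZ (SCHIZORIZA), a heat shock factor that separates ground tissue fate from outer fates, was at 74.2, 22.4 and 86.8 FPKM, against 28.6 in stele, 0.392 in epidermis and 2.59 in columella root cap. Without the stele library 12 of the 15 stood above, where 3262 of all 19671 genes did. The cause of the stele values was not tested. RBR1, a repressor of the cell cycle, and LHP1, a chromatin protein, lay between 4.15 and 29.1 FPKM in all libraries and overlapped.

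CYCD6;1, the cyclin that SHR and SCR induce for the division of the common daughter cell, went the other way. It was at 0.653, 0.945 and 0.386 FPKM in the ground libraries and at 2.21, 5.72 and 2.32 in epidermis, stele and columella root cap. The ground libraries were thus all under 1 FPKM, and the difference of means was -1.34 (adjusted p 0.174 in the limma cell type fit). Stele held its highest level.

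**Figure D3:**
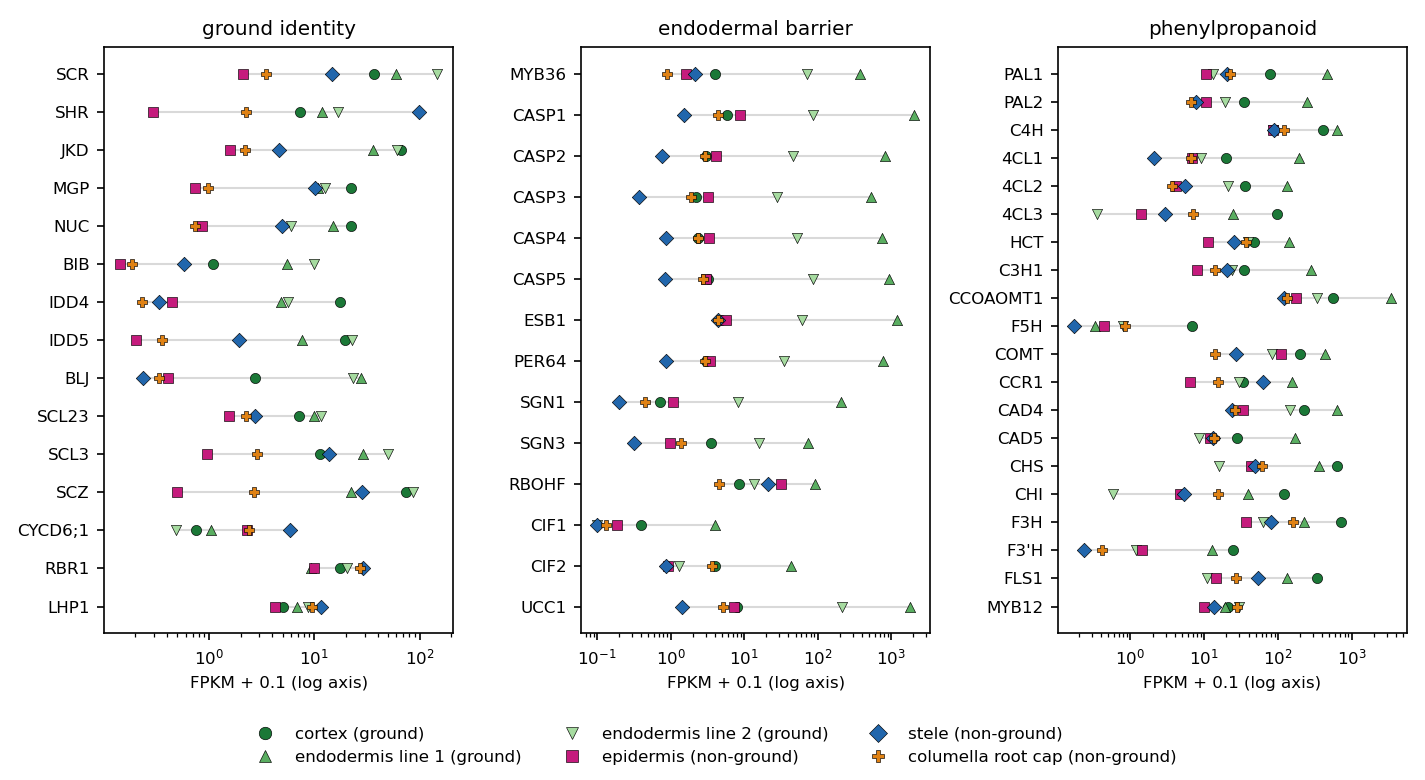
FPKM + 0.1 on a log axis for every member of 3 gene lists, 1 symbol per library (green for the 3 ground libraries). Ground identity genes from SCR to SCL23, apart from SHR, have all green symbols to the right, most barrier genes have cortex near or among the non-ground libraries, and phenylpropanoid genes other than MYB12 have endodermis line 1 or cortex farthest right.

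The genes described next from the largest gaps were grouped by annotated role after their values were seen, and no share of such roles among all genes was counted. AGP26 (AT2G47930), an arabinogalactan protein, was at 118 FPKM in cortex and at 102 and 220 in endodermis lines 1 and 2. It was at 2.81, 6.07 and 3.64 FPKM in epidermis, stele and columella root cap. No other gene with 5 FPKM or more on the higher side had sides as far apart, 3.86 log2 units, and its difference of means was 4.80 (SE 0.47), with the lowest adjusted p of the limma fit, 0.182. AGP7, of the same class, was at 491, 646 and 614 FPKM, against 96.4 in epidermis, 14.5 in stele and 12.6 in columella root cap. Its ground libraries agreed within 2-fold, and epidermis came nearest.

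ELP (AT1G12090), annotated as an extensin-like protein, leaned to cortex. It was at 1422 FPKM there and at 234 and 229 in the endodermis lines, against 40.5, 1.81 and 7.93 outside ground tissue. PME3, a pectin methylesterase that modifies wall pectin, was at 71.6, 131 and 87.9 FPKM against 3.36, 14.6 and 6.70. EXPA11, an expansin that loosens walls, was at 270.0, 110.0 and 108 FPKM against 28.1, 26.6 and 2.42. All of these genes had sides that did not overlap under the 2-fold rule. EXPA11, and all genes described from the 95 beyond the 15 largest gaps and the listed pathways, were chosen after their values were seen.

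Peroxidases use hydrogen peroxide to cross-link wall polymers. AT4G11290, of this family, was at 35.0 FPKM in cortex and at 1253 and 764 in the endodermis lines, against 4.77, 2.32 and 6.27 outside. RCI3, also a peroxidase, was at 72.0, 2757 and 1377 FPKM against 11.4, 6.83 and 15.04. AT4G11190, a dirigent-like protein of the class that guides phenolic coupling, was at 10.9, 281 and 168 FPKM against 3.29, 1.64 and 3.33. These 3 genes were higher in both endodermis lines than in cortex, and cortex exceeded every non-ground library by 2-fold or more. Endodermis was not compared with cortex over the whole family. Across the family, 12 of 65 measured peroxidases stood above (18.5%, against 5.19% of all genes) and 0 below, while their median difference was 0.17. Many peroxidases are close copies, and how reads shared between copies were assigned is not given in the sources used here.

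**Figure D4:**
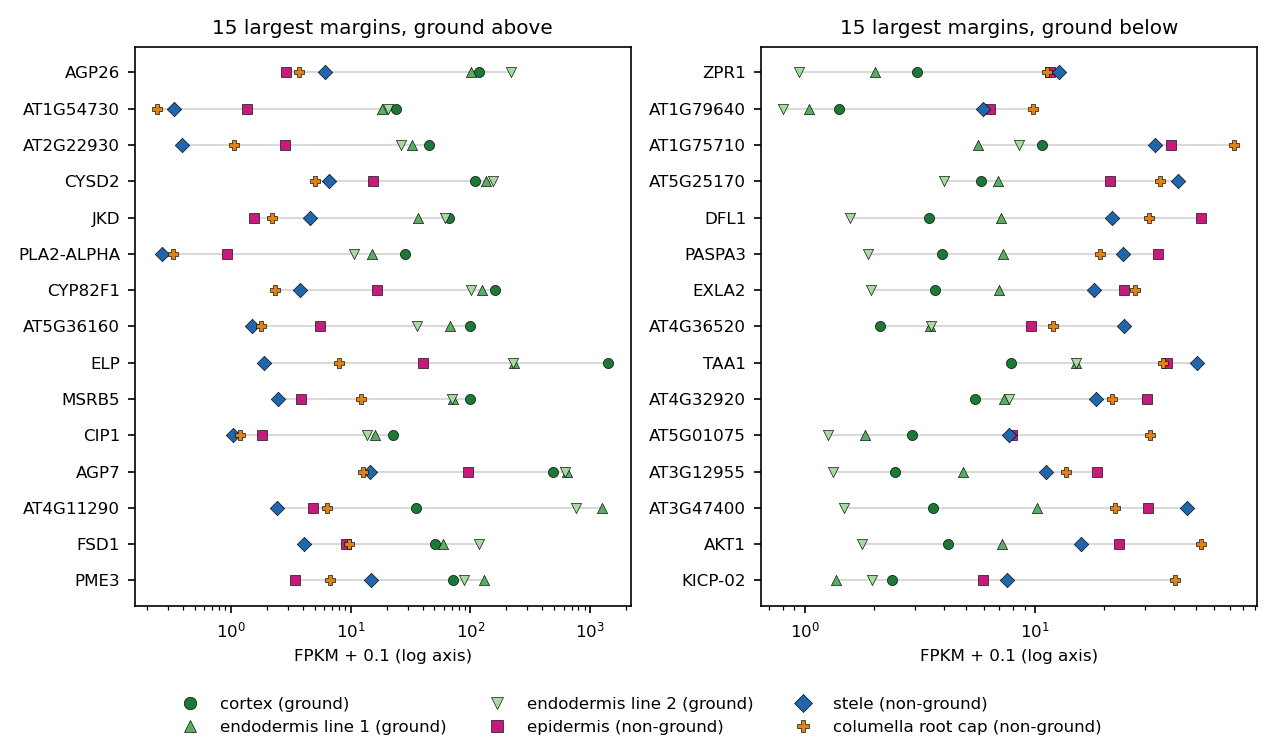
FPKM + 0.1 on a log axis for the 15 genes with the largest gap above (left) and below (right), in order of the gap, 1 symbol per library, green for ground tissue. AGP26 heads the left panel with 102 to 220 FPKM against at most 6.07, and ZPR1 the right panel with at most 2.96 FPKM against at least 11.2.

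CYSD2, an enzyme of cysteine synthesis, was at 109, 135 and 154 FPKM, against 15.2, 6.55 and 4.99. FSD1, an iron superoxide dismutase, was at 50.1, 58.7 and 118 FPKM against 8.998, 4.01 and 9.51. MSRB5, which repairs oxidised methionine, was at 99.9, 71.5 and 70.4 FPKM against 3.79, 2.40 and 12.0. The ground libraries lay within 2-fold of each other at CYSD2 and MSRB5, and endodermis line 2 was highest at FSD1. GSH1, which makes the first step of glutathione synthesis, was at 228, 345 and 205 FPKM against 93.1, 50.7 and 78.3.

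MYB34, a regulator of indole glucosinolate genes, was at 36.3, 57.2 and 85.4 FPKM, against 3.62, 6.75 and 7.81. SUR1, a C-S lyase of glucosinolate synthesis, was at 34.8, 33.3 and 56.5 FPKM against 8.77, 9.88 and 16.0. NIT1 and NIT2, nitrilases that can turn indole acetonitrile into auxin, were highest in cortex. NIT1 was at 168, 36.7 and 32.5 FPKM against 12.1, 7.35 and 3.70. NIT2 was at 182, 9.01 and 31.9 FPKM against 3.69, 2.41 and 2.29. The nitrilases are near-identical neighbours, so reads may be split between them. CYP82F1, a cytochrome P450 monooxygenase, was at 162, 124 and 102 FPKM against 16.4, 3.71 and 2.25, and the transaminase AT5G36160 at 99.8, 67.7 and 35.6 against 5.48, 1.41 and 1.70.

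Among the remaining 15 largest gaps, AT1G54730, a sugar-transporter-type membrane protein, was the most even. It was at 23.7, 18.2 and 20.3 FPKM in ground tissue and at 1.26, 0.236 and 0.143 outside. AT2G22930, a UDP-glycosyltransferase, was at 45.0, 32.7 and 26.2 FPKM against 2.75, 0.294 and 0.971. PLA2-ALPHA, a secreted phospholipase, was at 28.4, 14.9 and 10.6 FPKM against 0.827, 0.166 and 0.228, and CIP1, a COP1-interacting protein, at 22.4, 15.8 and 13.6 against 1.71, 0.942 and 1.101. In each of the 4, epidermis was the highest of the non-ground libraries. Just inside the 2-fold rule stood HB2 and UAH, with gaps of 1.01 log2 units each, and just outside it AT5G51580 and AT1G78860, with gaps of 1.00 and 0.98.

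By the rule, each of the 1021 genes above exceeded every non-ground library in cortex and in both endodermis lines. The following split between layers therefore only describes genes selected for being shared. The lowest ground library was cortex at 347 genes, endodermis line 1 at 360 and line 2 at 314, and in 571 (55.9%) the 3 ground libraries lay within 2-fold. Both endodermis lines were at least 2-fold above cortex at 78 genes, and cortex was 2-fold above both lines at 65. The nearest non-ground library was stele at 402, epidermis at 373 and columella root cap at 246. The median gap was 0.25 log2 units, so that most of these genes were separated by little. The gap reached 2-fold, with 5 FPKM, at 95 of them, of which 94 are annotated as protein-coding.

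Genes of phenylpropanoid synthesis, which supplies lignin, suberin phenolics and flavonoids, had higher means in ground tissue at 20 of 20 measured members. Of these, 7 stood above (35%, against 5.19% of all genes) and 0 below. An unadjusted limma p under 0.05 was held by 9, and 0 passed the adjusted threshold. The median difference was 1.71 on the log2 scale and was above 0 under every scaling and with each library left out. The early steps, from phenylalanine to the activated acids, were represented by PAL2 and 4CL2. PAL2 was at 35.1, 247 and 19.0 FPKM in cortex and endodermis lines 1 and 2, against 10.5, 7.75 and 6.59. 4CL2 was at 36.2, 131 and 21.0 FPKM against 4.05, 5.48 and 3.52. Endodermis line 1 held the highest value at both.

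The lignin branch followed the same order. CAD4, which makes the alcohols that become lignin, was at 225, 626 and 146 FPKM against 33.7, 23.6 and 25.8, and passed the 2-fold rule with a gap of 2.08 log2 units. CCOAOMT1, a methyltransferase, was at 561, 3425 and 334 FPKM against 176, 120 and 131. C3H1, a hydroxylase, was at 34.9, 280 and 23.8 FPKM against 7.89, 20.3 and 14.0. Enzymes of the flavonoid branch were highest in cortex. CHS, chalcone synthase, was at 633, 356 and 15.9 FPKM, and its 15.9 in endodermis line 2 was below the 43.4, 49.4 and 60.5 of the non-ground libraries. FLS1, flavonol synthase, was at 342, 134 and 10.8 FPKM against 14.2, 53.1 and 27.1. Without endodermis line 2, 17 of the 20 genes stood above, where 1433 of all 19671 genes did. The median of the 20 was then 3.07, so line 2 decided most of the overlaps.

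Gibberellin genes separated mainly at the last steps of synthesis. Of 24 measured genes 5 stood above (20.8%, against 5.19% of all genes) and 1 below (4.17%, against 2.53%), and the median difference was 0.23. GA20OX2, an oxidase that makes the precursor of active gibberellin, was at 73.5 FPKM in cortex and at 1.02 and 3.08 in the endodermis lines, against 0.121, 0.0972 and 0.312. GA3OX1, which makes the active hormone, was at 58.0, 7.47 and 3.77 FPKM against 1.02, 0.166 and 0.207. GA3OX2 was at 6.69, 1.16 and 3.78 FPKM against 0.111, 0.0586 and 0.0846. At all 3 enzymes cortex was highest and both endodermis lines exceeded the non-ground libraries. Their differences of means were 2.86, 3.24 and 1.99 in the order given, with limma adjusted p of 0.9999, 0.91 and 0.821. Cortex has 1 library, so its own spread is unknown. GA20OX1 reached 6.27 FPKM in cortex, no other library passed 0.585, and its sides overlapped.

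The early enzymes KS, KO, KAO1 and KAO2 and the receptors GID1A, GID1B and GID1C did not separate the sides. NPF3.1, a transporter that carries gibberellin into the endodermis, was at 0.0731 FPKM in cortex, 4.04 and 0.830 in the endodermis lines and at most 0.0199 outside, with stele listed at 0. GASA1, a gibberellin-responsive small protein, was at 185, 4898 and 330 FPKM against 119, 33.5 and 104. RGL1, a DELLA repressor of the response, stood below, at 2.61, 1.87 and 1.80 FPKM against 3.46, 3.71 and 21.4. Its difference was carried by columella root cap. The DELLA genes GAI and RGA overlapped, and RGA lay between 23.5 and 36.0 FPKM in every library.

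Of 12 measured brassinosteroid genes 1 stood above (8.33%, against 5.19% of all genes) and 2 below (16.7%, against 2.53%), with a median difference of 0.34. So few genes show nothing particular to the list. DET2, a steroid reductase of synthesis, stood above at 19.9, 19.9 and 16.2 FPKM against 5.18, 7.55 and 9.60. The receptors BRI1 and BRL3 stood below. BRI1 was at 39.1, 28.8 and 40.1 FPKM against 62.4, 46.3 and 157, and BRL3 at 0.517, 1.08 and 0.752 against 2.27, 3.45 and 1.53. BR6OX2, of the last step of synthesis, was at 8.32, 75.3 and 55.6 FPKM, but its 14.8 in stele exceeded cortex.

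Casparian strip genes did not behave as shared ground tissue genes. CASP1, a membrane scaffold of the strip, was at 5.80 FPKM in cortex, 2045 in endodermis line 1 and 85.2 in line 2. In epidermis, stele and columella root cap it was at 8.66, 1.44 and 4.29 FPKM, so cortex lay among the non-ground libraries. Of 14 measured barrier genes 4 stood above (28.6%, against 5.19% of all genes) and 0 below, and the median difference was 3.92. Those 4 were MYB36, CASP5, SGN3 and UCC1. The gaps of CASP5 and UCC1 were only 0.08 and 0.12 log2 units. With size factors, and with quantile normalization, 2 of the 14 stood above. MYB36, the master regulator of the strip, was at 3.87, 377 and 70.5 FPKM against 1.497, 2.03 and 0.807. SGN3, the receptor that surveys its integrity, was at 3.40, 73.4 and 15.6 FPKM against 0.892, 0.221 and 1.27. Without cortex 11 of the 14 stood above, where 1460 of all 19671 genes did. The summed level of the 14 was 9627 FPKM in endodermis line 1, 716 in line 2, 52.5 in cortex and between 34.6 and 74.1 outside ground tissue.

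Cortex markers showed the opposite lean. The summed level of the 5 markers was 123 FPKM in cortex, 28.0 and 12.7 in endodermis lines 1 and 2, and 16.7, 2.59 and 4.72 in epidermis, stele and columella root cap. These 5 include AED3, which stood above and was at 43.0 FPKM in cortex. The promoter of AED3 drove the reporter by which cortex was sorted. CO2, a protein of the lipid transfer class, stood above without being highest in cortex, at 2.39, 1.55 and 6.97 FPKM against 0.0996, 0.235 and 0.468. The other 3 markers overlapped at endodermis line 2, and NPF6.4 also at line 1, with 2.38 FPKM against 2.56 in epidermis. Of 9 measured suberin genes, KCS20 and MYB41 stood above (22.2%, against 5.19% of all genes) and 0 below, and with size factors 1 stood above. KCS20, which elongates fatty acids, was at 31.0, 117 and 59.5 FPKM against 23.6, 10.4 and 2.001. MYB41, an activator of suberin genes, was under 1 FPKM except in endodermis line 1, at 4.26. Its 0.160 FPKM in cortex passed the 0.141 of columella root cap by a gap of only 0.02 log2 units.

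Genes below in ground tissue were fewer, and columella root cap was the highest library at 323 of 498 (64.9%). ZPR1, a small protein that blocks leaf polarity factors, had the largest gap of the 15 genes under the 2-fold rule. It was at 2.96, 1.91 and 0.842 FPKM in ground tissue and at 11.5, 12.6 and 11.2 outside, so the non-ground libraries were nearly level. CEL3, a cellulase, had a larger gap at a lower level, with 0.146, 0.208 and 0.0865 FPKM against 5.52, 3.97 and 4.19. Its difference of means was -2.27 (SE 0.39), with the lowest adjusted p among genes lower in ground tissue in limma, 0.363.

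Of the 15, 3 have annotated roles in auxin, and were picked out after their values were seen. TAA1, the aminotransferase that starts auxin synthesis from tryptophan, was at 7.72, 14.97 and 14.9 FPKM against 37.4, 50.4 and 35.9. DFL1, a GH3 enzyme that conjugates auxin, was at 3.36, 7.03 and 1.48 FPKM against 52.5, 21.4 and 31.1. AT3G12955, of the SAUR class of auxin-responsive genes, was at 2.37, 4.75 and 1.22 FPKM against 18.5, 11.1 and 13.5. At each of the 3 genes every ground library lay at least 2-fold under every non-ground one on the FPKM + 1 scale. Of 9 measured auxin carrier genes (PIN, AUX1 and LAX) 0 stood above and 0 below, and at the shares of all genes, 5.19% and 2.53%, so short a list would hold few or none.

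AKT1, the potassium channel of root uptake, was at 4.09, 7.08 and 1.68 FPKM against 23.1, 15.8 and 52.4. It was the only member that separated the sides among 17 measured nutrient transport genes (5.88% below, against 2.53% of all genes). Above stood 0, against 5.19% of all genes, and so short a list shows nothing particular. EXLA2, an expansin-like wall protein, was at 3.56, 6.87 and 1.84 FPKM against 24.3, 17.8 and 27.0. AT1G75710, a zinc finger protein, was at 10.6, 5.52 and 8.39 FPKM against 38.8, 33.1 and 73.2, and the kinase AT1G79640 at 1.302, 0.944 and 0.707 against 6.24, 5.85 and 9.64. PASPA3, an aspartyl protease of dying cells, was at 3.84, 7.18 and 1.78 FPKM against 34.2, 23.96 and 19.1. At the 2-fold limit stood AKT1 and KICP-02, a kinesin, with gaps of 1.05 log2 units each, and just outside it AT3G59765 and AT1G70550, with 0.99 each.

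Of 5 measured stem cell regulators 2 stood below in ground tissue (40%, against 2.53% of all genes) and 1 above (20%, against 5.19%). A list of 5 genes is too short for these shares to show anything particular to it. PLT3, an AP2 factor of the root stem cell niche, was at 11.7, 10.5 and 20.1 FPKM against 33.3, 80.6 and 136. PLT1 was at 1.88, 4.17 and 5.88 FPKM against 7.15, 15.7 and 79.6, with a gap of 0.25 log2 units. WOX5, the homeobox gene of the quiescent centre, stood above at 1.596, 2.89 and 3.03 FPKM against 0.366, 1.08 and 0.484, all near the minimum for a measured gene. PLT2 and BBM overlapped.

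Markers of the non-ground tissues show what each library held. Their part in the counts above was not tested. The summed level of 10 root hair genes was between 11.7 and 39.8 FPKM in ground tissue and 1167 in epidermis. Of the 10, 0 separated the sides, and at the shares of all genes, 5.19% above and 2.53% below, few or none would. For 10 stele genes the summed level lay between 90.4 and 95.5 FPKM in the ground libraries, against 873 in stele, 187 in columella root cap and 41.1 in epidermis. The 11 root cap markers had lower means in ground tissue at 11 of 11, with a median difference of -2.40, and summed to between 13.2 and 28.8 FPKM there, 34.7 in stele, 284 in epidermis and 509.7 in columella root cap. PASPA3 alone stood below (9.09%, against 2.53% of all genes). Without the stele library 9 of the 11 did so, where 2578 of all 19671 genes did. Xylem markers summed to 69.3, 133 and 17.0 FPKM in cortex and endodermis lines 1 and 2, against 13.7 in epidermis, 265 in stele and 815 in columella root cap, so the library labelled columella root cap held more of them than stele did. Less RNA per cell and fewer cells of a type cannot be told apart in sorted bulk samples.

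Stress genes, which can respond to wall digestion and sorting, were high in libraries of both sides. The summed level of 11 such genes was 1972 FPKM in endodermis line 1, 1715 in epidermis and 2135 in columella root cap, against 485 in cortex, 465 in endodermis line 2 and 252 in stele. Of the 11 genes 0 stood above and 0 below, and the median difference was -0.57. Epidermis markers and phloem markers likewise gave 0 of 8 and 0 of 9, and the triterpene cluster genes 0 of 8. At the shares of all genes, 5.19% above and 2.53% below, lists this short would hold few or none. In the lists of epidermis, root hair, stele, xylem, phloem, root cap and cortex markers, ATML1 was listed at 0 in stele and no other member was at 0. CIF1, of the barrier list, was listed at 0 in stele and endodermis line 2.

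Over the 6 libraries 0 cell division and DNA methylation genes separated the sides, against 5.19% above and 2.53% below over all genes. At those shares lists of this size would hold few, so these counts show nothing particular to the lists. Without stele, cell division genes separated the sides in part. All 12 S phase genes and 15 of 16 genes of G2 and M phase had higher means in ground tissue, by medians of 0.18 and 0.19, but 0 stood above, and both medians turned negative without epidermis, without endodermis line 2 and without columella root cap. Without stele 4 of the 12 and 9 of the 16 stood above, with medians of 0.93 and 1.08, where 3262 of all 19671 genes did. Without stele 2 of the DNA methylation genes stood above and 1 below. Over the 6 libraries, of 29 measured genes of DNA methylation, demethylation and small RNA pathways 0 stood above and 0 below, with 0 at an unadjusted limma p under 0.05. MET1, which maintains CG methylation, was at 16.2, 6.42 and 22.6 FPKM in ground tissue against 5.92, 36.9 and 5.10. CMT3, of CHG methylation, was at 23.0, 10.3 and 34.5 FPKM against 10.9, 53.1 and 5.56. At both genes the order was stele, endodermis line 2 and cortex, then the other 3 libraries.

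**Figure D5:**
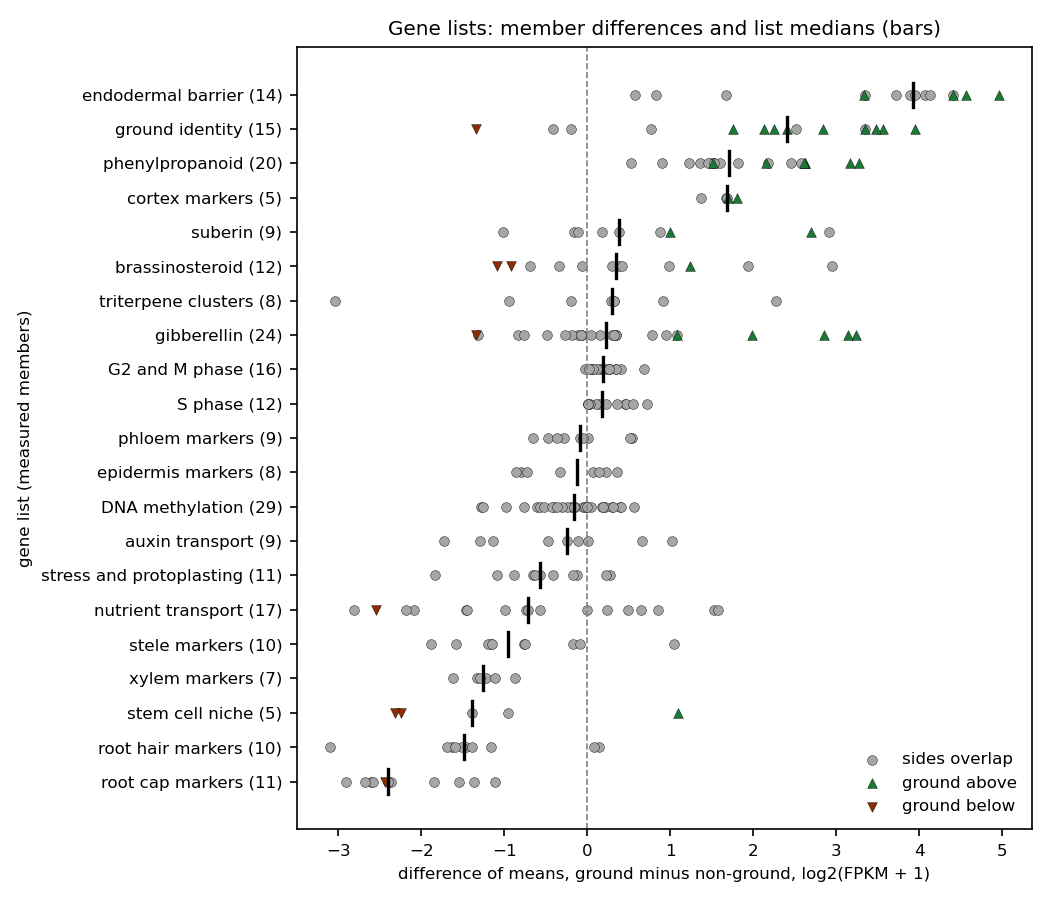
Difference of means between ground and non-ground libraries on the log2(FPKM + 1) scale (horizontal axis) for each measured member of 21 gene lists (vertical axis), with list medians as bars. Green triangles are genes above and brown triangles genes below; barrier, identity and phenylpropanoid medians are 3.92, 2.41 and 1.71, and the root cap median is -2.40.

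Of 31 gene families defined by product names, 22 held a larger share of genes above than the 5.19% of all genes, so a share over that value is usual among them. Among those with the highest shares besides peroxidases, 10 of 54 lipid transfer proteins stood above (18.5%), with 1 below and a median difference of 0.96. Of 27 aquaporins, the water channels, 4 stood above (14.8%), 22 had higher means and the median was 0.80. RD28, among them, was at 20.2, 512 and 69.9 FPKM against 6.25, 4.10 and 6.56. Of 80 extensins and arabinogalactan proteins 11 stood above (13.8%), and of 100 nitrate and peptide transporters 14 (14%). ERF and AP2 factors held 6 of 43 (14%), C2H2 and IDD zinc fingers 9 of 65 (13.8%), pectin enzymes 14 of 109 (12.8%) and UDP-glucosyl transferases 12 of 96 (12.5%).

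Other families held few genes above over the 6 libraries. Ribosomal proteins had higher means at 278 of 299 members, by a median of 0.32, yet 4 stood above (1.34%). Proteasome subunits had higher means at 38 of 42, with 0 above. Without stele 60 of the 299 ribosomal proteins and 22 of the 42 proteasome subunits stood above, where 3262 of all 19671 genes did. Without endodermis line 1, 12 of the proteasome subunits did, beside 2520 of all genes. NAC factors had lower means at 39 of 53 and a median of -0.62, with 1 above and 0 below. Without stele 15 of them stood below, beside 2578 of all genes.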

How the data were processed

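The authors deposited 1 file of FPKM per library for 33554 loci. The tools named, per the submitters' processing notes, are Cufflinks 2.0.2, TopHat 1.3.1 and Bowtie 0.12.7, with TAIR10 as build. Annotation, strandedness and read numbers are not given in these sources, so depth is unknown and no counting interval can be set. An exact 0 may be a failed estimate. Identifiers were matched to RefSeq TAIR10.1 for names and promoters, and 32807 matched; where the list of a pathway gives another symbol, that of the list is printed.

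Loci with 1 FPKM in at least 1 library (19671) were compared on log2(FPKM + 1), which understates differences of low genes. limma 3.58.1 (R 4.3.3, trend) compared 3 libraries with 3 (4 residual degrees of freedom), with cell type means as an alternative. An exact permutation test of 3 against 3 cannot go below a two-sided p of 0.1 and was not used. The computation was tested on simulated data. The comparison, its 21 gene lists and 31 product families were chosen with earlier results of these data known. Named genes are the reporter genes, per direction the 15 largest gaps, the 5 smallest limma p-values and the genes just inside and outside the 2-fold limit, and list members; other list members serve as examples. Alternatives covered the FPKM minimum, the pseudocount (0.1), size factors, TPM, quantile normalization, averaged endodermis lines, each library left out in turn, and limma settings. Figures used matplotlib 3.10.9.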

Additional observations from a re-analysis of the deposited data

How the results depend on the processing

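The counts kept within 1.5-fold under both FPKM minimums, the pseudocount of 0.1, size factors and quantile normalization, and under TPM except for genes below by 2-fold, 23 in place of 15. The genes themselves moved more: with size factors 677 of the 1021 genes above, 293 of the 498 below, 73 of the 95 above by 2-fold and 8 of the 15 below by 2-fold were counted again, and the median over all genes moved from 0.01 to -0.06. Averaging the endodermis lines gave 1758 genes above, 877 below, 150 above by 2-fold and 34 below by 2-fold. Leaving out each library in turn gave 1433 to 3262 above, 664 to 2578 below, 119 to 290 above by 2-fold and 18 to 510 below by 2-fold, since fewer libraries must be passed. Above by 2-fold were 290 without epidermis, 252 without stele, 245 without cortex, 181 without endodermis line 1 and 159 without line 2, and below by 2-fold 510 without stele, 97 without epidermis, 53 without endodermis line 1 and 25 without columella root cap. Adjusted limma calls were 0 to 19 higher and 0 to 99 lower, with 19 and 99 without stele, 3 and 0 without cortex and 0 in the other 4; the cause was not tested. The limma fit with cell type means gave 344 and 321 calls in place of 0. Most named genes were chosen for sides that do not overlap, which fixes their direction when libraries are left out, so their direction there is no sign of stability. The reporter genes WER and WOL, whose sides overlap, reversed to 0.58 without epidermis and to 0.27 without stele (WER lay between -1.77 and 0.58, and WOL between -0.76 and 0.27, over the libraries left out). List medians changed sign in some settings for suberin, auxin transport, triterpene, epidermis, root hair, stele, phloem, S phase, G2 and M phase, DNA methylation and stress genes, under other scalings in none. No paired analysis was possible because only endodermis has more than 1 library. With unknown depth and 3 libraries a side, a gene outside the counts is not shown to be level between the sides.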
